A study of Mus musculus with 32 samples.

Results

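The 8 kidneys described here came from NZB/W mice in early remission after a triple therapy of CTX, CTLA4Ig and anti-CD154, and they were chosen by their sample titles as the only kidneys of that stage and treatment among the 32 kidneys of the series. NZB/W mice are the hybrid offspring of the NZB and NZW strains, whose females develop an immune-complex nephritis that resembles human lupus nephritis. The other groups were non-proteinuric NZB/W mice at 30 weeks, with no treatment given in the labels (7 kidneys), NZB/W mice in late remission after the same triple therapy (6) or after Ad-TACI-Ig with CTLA4Ig (5, called TACI-Ig kidneys here), and NZM2410 mice in remission after Ad-BAFF-R-Ig (6). CTLA4Ig is a fusion protein that blocks CD28 costimulation of T cells, and anti-CD154 is an antibody against the CD40 ligand. All samples were total RNA from whole kidney, and the labels give neither age nor sex for the treated mice. No source used here describes the doses or the time of remission. The question was how far kidneys with the same label differed from each other, and which genes differed together. The sample names carry letters whose meaning is not given: BG for kidneys 1, 5, 6 and 7, GG for kidneys 2, 3 and 4, and V for kidney 8. All 7 of the 30-week kidneys also carry BG, and all 6 late-remission kidneys of the triple therapy carry V, the letter of kidney 8. The name of kidney 1 also holds a mouse code that 1 of the 30-week kidneys carries. The arrays of these kidneys correlated with r = 0.993, and kidney 1 and the other 30-week kidneys with r = 0.988 to 0.994. Whether the 2 samples came from 1 mouse cannot be told from these values.

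A whole kidney is mostly proximal tubule, a segment that lives on fatty acid oxidation, makes glucose and creatine precursors, and carries a set of transporters and cytochrome P450 enzymes that in mice depend on sex hormones. PPAR alpha is the nuclear receptor that turns on fatty acid oxidation genes in fasting. The circadian clock runs in kidney cells as in most others, with the activators Arntl and Clock driving through E-box sequences the Per, Nr1d and Dbp genes, which peak at another time of day and feed back on them. Immunoglobulin transcripts in a kidney come largely from infiltrating leukocytes, and the adrenal gland lies on the upper pole of the kidney. In RNA from whole tissue, fewer cells of a type and less RNA per cell cannot be told apart.

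The tissue label was borne out by its markers. All 6 podocyte genes, all 11 proximal tubule genes, all 8 genes of the loop and distal tubule and all 10 collecting duct genes of the fixed lists had a group mean of at least 6 on the log2 scale, and the proximal tubule genes had means from 10.3 to 14.1. Whole-array correlations between pairs of the 8 kidneys ran from 0.984 to 0.997. Most genes varied little. Of 15780 named genes, 10694 had a group mean of at least 6, and their SD over the 8 kidneys had a median of 0.138 on the log2 scale. The SD was under 0.2 for 78.4% of them, at least 0.5 for 195 (1.82%) and at least 1 for 23.

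**Figure D1:**
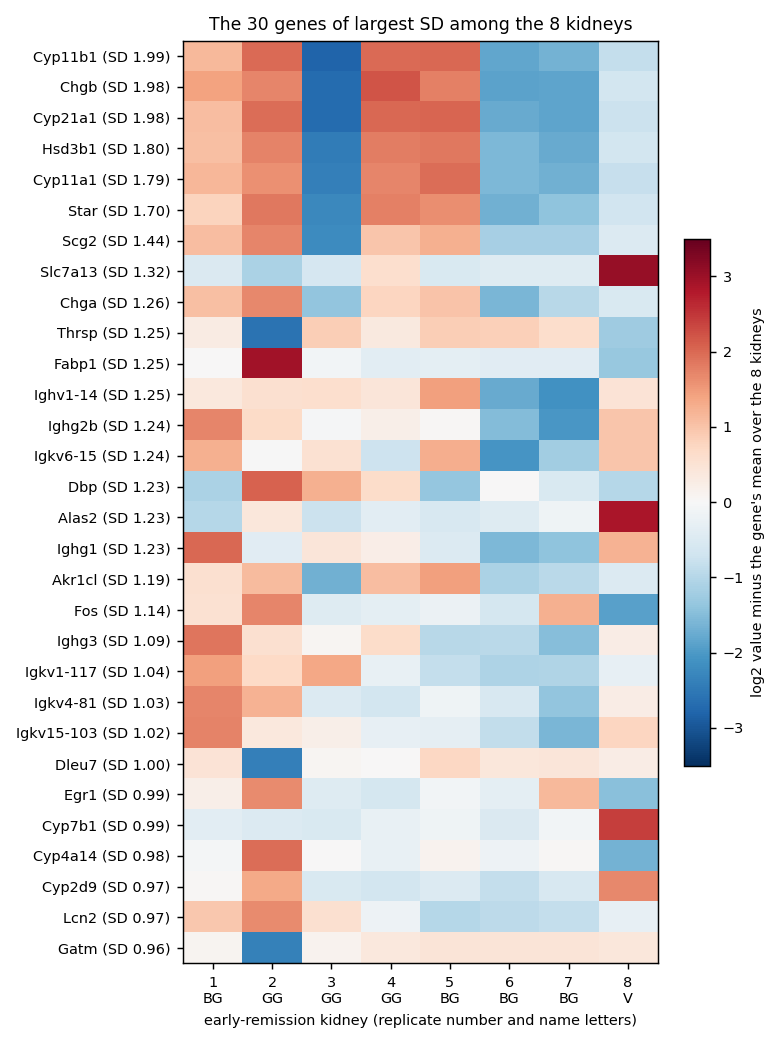
Log2 value of each of the 30 genes of largest SD (rows, SD in brackets) in each early-remission kidney (columns, with its name letters), as the difference from the mean of that gene over the 8 kidneys, in log2 units. The adrenal genes split the kidneys into 1, 2, 4 and 5 against 3, 6, 7 and 8, while Fabp1 and Gatm stand apart in kidney 2 and Slc7a13, Alas2 and Cyp7b1 in kidney 8.

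The 30 genes of largest SD fell into a few kinds. They held 7 genes of the adrenal lists, 8 immunoglobulin genes, and genes of lipid metabolism, the clock, immediate early response and tubular transport, as the heat map of these genes shows. The SD ran from 1.99 for Cyp11b1 to 0.96 for Gatm, and the next gene was Ighm, also at 0.96. Among genes with a group mean under 6, which were not ranked, Cyp2j13 had the largest SD (0.87 at a mean of 5.35), and the genes whose means lay nearest the limit were Sult1b1 (just under it, with an SD of 0.12) and Zfp202 (just above it, with an SD of 0.14). Kidney 2 held the value farthest from the median for 9 of the 30 genes, kidney 3 for 8, kidney 1 for 5 and kidney 8 for 4, whereas kidneys 4 and 5 held none.

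Adrenal genes varied most. Cyp11b1, which makes corticosterone, had log2 values of 8.59, 9.43, 9.42 and 9.45 in kidneys 1, 2, 4 and 5, and of 4.66, 5.63, 5.79 and 6.63 in kidneys 3, 6, 7 and 8. No kidney lay between 6.63 and 8.59. Star, which carries cholesterol into the mitochondrion for steroid synthesis, split the kidneys in the same way, at 8.14 to 9.19 in the former and 5.09 to 6.70 in the latter. Cyp21a1 (SD 1.98), Hsd3b1 (1.80) and Cyp11a1 (1.79), also steroidogenic enzymes, followed. All 28 pairs of the 8 cortex genes were positively correlated across kidneys, with a median r of 0.96, against 0.009 over all pairs of the 10694 genes. Chgb and Chga, granule proteins of chromaffin cells, belong to the adrenal medulla, and Chgb ran from 8.35 to 9.13 in kidneys 1, 2, 4 and 5 and from 4.24 to 6.28 in the others. The high and low kidneys thus did not overlap for genes of either layer. BG kidneys were found on both sides of the split, as were GG kidneys.

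Genes outside the cortex list were then tested for a slope on the cortex score, the mean over the list of each gene's log2 difference from its mean over the 8 kidneys. Limma called 12 genes that rose with it (0.0761% of the 15772 tested) and none that fell. Of the 12, 4 were among the 5 medulla genes tested. The steepest slopes per unit of score were those of Chgb (1.46 ± 0.06, SE, n = 8, adjusted p = 3.39e-06) and of Scg2, a granule protein of the same cells (1.05 ± 0.06, adjusted p = 6.31e-05), followed by Chga (0.90) and Akr1cl, an aldo-keto reductase (0.88). All of these were among the 30 genes of largest SD, for which the adrenal genes were taken up. The kidneys also fall into separate clusters on this score. The slopes and p-values are therefore a description of the same split and no separate test of it. Scarb1, the receptor that takes up cholesterol esters, rose by 0.42 per unit and Pnmt, which makes adrenaline, by 0.50. Chgb, Scg2, Chga, Akr1cl and Adh7 kept an adjusted p under the threshold in every setting that tested them, whereas Pnmt did so in 4 of 15. The count of calls was 5 without kidney 3 or 6, 6 without kidney 7 and 7 without kidney 4 or 5. No list of nephron, metabolic or immune genes had a called member.

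Kidney 2 stood apart in lipid genes. In this kidney 105 genes lay over 2-fold above the mean of the other 7 kidneys and 78 over 2-fold below, more than in any other (2 to 35 above and 2 to 47 below). Fabp1, a fatty acid binding protein, was at 9.35 against 5.09 to 6.43 in the others. Cyp4a14, a fatty acid hydroxylase, was at 13.72 against 10.11 to 11.90, and Angptl4, a secreted inhibitor of lipoprotein lipase, at 10.48 against 7.55 to 8.56. Pdk4, which turns off pyruvate dehydrogenase, was at 10.28 against 7.31 to 8.95, and Vnn1, a pantetheinase, lay 2.31 log2 units above the mean of the others. All of these are known PPAR alpha targets. Of the 15 members of that list, all 15 lay above the mean of the other kidneys in kidney 2, 11 of them over 2-fold, and 14 had their highest value there. Mitochondrial beta-oxidation shifted less, with 13 of 15 above and 3 over 2-fold (Eci1, an enoyl-CoA isomerase, at 11.81 against 10.50 to 10.67). Pck1, the gluconeogenic kinase, was at 13.35 against 11.77 to 12.45.

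Lipid synthesis and some tubular genes were low in the same kidney. Thrsp, a regulator of lipogenesis, was at 7.27 in kidney 2 and at 8.63 in kidney 8, against 10.14 to 10.73 in the other 6. Fasn, the fatty acid synthase, was at 8.92 in kidney 2 against 9.78 to 11.04. Of the 11 sterol synthesis genes, 10 had their lowest value in this kidney, among them Msmo1 (7.60 against 8.82 to 9.69) and Nsdhl (9.19 against 10.20 to 10.96). Gatm, which makes the precursor of creatine in the proximal tubule, was at 9.88 against 12.32 to 12.70. Slc8a1, a sodium-calcium exchanger, was at 6.56 against 8.23 to 8.85, and Calb1, the calcium-binding protein of the distal tubule, at 10.47 against 11.72 to 12.55. Dleu7 (5.97 against 8.38 to 9.11) also fell outside the range of the other kidneys. In the 30-week kidneys Fabp1 ran from 5.71 to 6.92 and Gatm from 10.77 to 12.79, so that the values of kidney 2 lay outside the range of that group too.

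A slope on the score of the PPAR alpha targets was tested for all other genes. Limma called 158 genes that rose (1.0% of 15765) and 121 that fell (0.768%), and every call was lost when kidney 2 was left out (0 called, with 2225 genes at an unadjusted p under 0.05). The calls thus rest on this kidney. Without it the slopes of Arg2 (1.54) and Cebpd (2.01) were about as steep or steeper, whereas those of Gatm (-0.16) and Dleu7 (0.14) were near 0. Without kidneys 2 and 8 the slopes of Arg2 and Cebpd turned to -0.54 and -0.56, and no gene was called. These slopes thus depend on kidney 8 as well, which had the lowest score (-0.56). Rising genes included 6 of 15 of beta-oxidation and 6 of 14 immediate early genes, and 3 of 11 sterol synthesis genes fell. The median slope was 0.33, 0.78 and -0.50 for these lists and 0.001 over all genes tested. Arg2, the mitochondrial arginase (1.48 ± 0.12 per unit of score, SE, n = 8, adjusted p = 0.000923), Mt2, a metallothionein (1.46 ± 0.19, adjusted p = 0.00676), and Cebpd, an acute-phase transcription factor (1.37 ± 0.27, adjusted p = 0.0347), were among the steepest risers. Dleu7 (-1.73), Gatm (-1.73) and Akr1c21, a hydroxysteroid dehydrogenase (-1.49), were the steepest fallers. Without kidney 8 the calls numbered 740, and without kidney 4, 5, 6 or 7 they numbered 153, 154, 147 and 181.

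Kidney 8 differed in other tubular genes. Slc7a13, an aspartate and glutamate transporter of the proximal tubule, was at 10.68 against 6.52 to 8.22 in the others. Cyp7b1, an oxysterol hydroxylase, was at 8.61 against 5.65 to 6.09, Inmt, a methyltransferase, at 10.88 against 8.20 to 9.69, and Akr1c21 at 11.23 against 7.87 to 9.62. Lower in this kidney were Abcc3, an efflux transporter (7.80 against 9.69 to 10.19), and Cbr1, a carbonyl reductase (9.25 against 11.05 to 11.53). Cyp7b1, Inmt, Slc7a13 and Akr1c21 lay over 2-fold above, and Abcc3 over 2-fold below, all 31 other kidneys of the series, and in kidney 2 this held for Cyp4a14, Fabp1 and Reep6 above and Slc8a1 below. In none of the other 6 kidneys did a gene do so. Several of these genes are known to differ between male and female mouse kidneys. The transcripts that mark sex, looked at because of these values, did not set kidney 8 apart: Xist was at 10.58 in kidney 8 and 9.79 to 10.33 in the others, and the Y-linked Uty was at 4.13 in kidney 8 against 4.0 to 4.36.

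**Figure D2:**
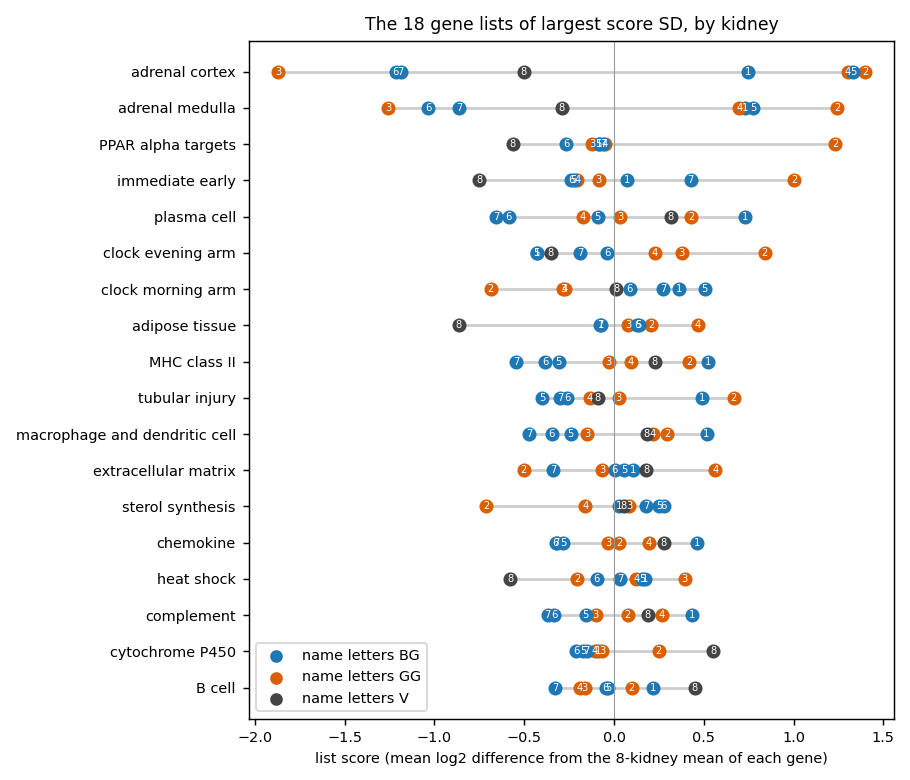
Scores of the 18 gene lists of largest score SD (rows) in the 8 early-remission kidneys; each point is a kidney with its number, coloured by name letters, and the horizontal axis is the mean log2 difference of the list's genes from their means over the 8 kidneys. Kidney 2 is alone at the high end for PPAR alpha targets (1.23), kidney 8 at the low end for adipose tissue (-0.87), and the adrenal scores leave a gap in the middle.

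Red blood cell genes moved mainly through 1 transcript. Alas2, the first enzyme of heme synthesis in red cells, was at 9.96 in kidney 8 and 6.11 to 7.5 in the others. It was the only 1 of the 6 scored red blood cell genes with an SD in the top 5% of all genes. Slc4a1, the anion exchanger of red cells and of intercalated cells, was at 8.98 in kidney 8 within a range of 8.64 to 9.17, and Klf1, an erythroid transcription factor, was highest in kidney 2 (7.89 against 7.37 to 7.59). Of the 14 measured red blood cell genes 8 had a group mean under 6, and the mean level of all 14 ran from 5.83 to 6.23. The score of the list was 0.54 in kidney 8 and -0.16 to 0.14 in the rest. All 7 scored neutrophil genes and all 4 scored platelet genes also lay above the mean of the other kidneys in kidney 8, though none over 2-fold. The plot of list scores by kidney shows that other cells moved in kidney 8 as well. All 7 adipose genes had their lowest value there, with Ucp1, the uncoupling protein of brown fat, at 7.38 against 8.75 to 9.85 and Adipoq, the adiponectin gene, at 8.88 against 9.87 to 11.03. All 3 scored pancreatic genes had their highest value there, as Prss2 at 6.77 against 6.12 to 6.56, and so did both scored B cell genes, with Cd79b at 7.11 against 6.03 to 6.90. The part of these cells in the tubular values of kidney 8 was not tested.

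Limma called 17 genes that rose with the red blood cell score (0.108% of 15766) and 31 that fell (0.197%). Inmt had the steepest slope (3.53 log2 units per unit of score, adjusted p = 0.0234), followed by Cyp2j13, a cytochrome P450 (3.31, which turned to -0.43 with the name letters as a covariate and to -0.38 without kidney 8), and Aldh1a7, an aldehyde dehydrogenase (2.87). S100a9, a neutrophil protein, rose by 2.13. Without kidneys 2 and 8 the slopes of S100a9 and Aldh1a7 turned to -1.41 and -0.024, and other named genes changed sign too. Hpgd, which breaks down prostaglandins, fell by 2.37 per unit of score and Fabp4, the fatty acid binding protein of adipocytes and endothelium, by 1.5. The score stood apart in kidney 8 (0.54), and Inmt was already named for its value in that kidney. The slopes and p-values are therefore a description of the same spread and no separate test of it. The 48 calls became 0 without kidney 4 or without kidneys 2 and 8, 2 without kidney 5, 16 to 31 without kidney 1, 3, 6 or 7, 130 without kidney 8 and 226 without kidney 2. Of the neutrophil list 1 gene was called, and 13 of 14 had a positive slope (median 0.44), against 9161 of 15766 over all genes tested (median 0.06). The slopes were as one-sided for plasma cell genes (9 of 9), MHC class II genes (9 of 9), platelet genes (8 of 8, with 1 called) and exocrine pancreas genes (8 of 8).

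Several clock genes divided the GG from the BG kidneys of this group. Dbp, a transcription factor that clock activators drive, was at 11.36, 10.54 and 9.94 in the GG kidneys 2, 3 and 4, at 8.18, 7.92, 9.30 and 8.76 in the BG kidneys 1, 5, 6 and 7, and at 8.29 in kidney 8. Per2, a repressor of the clock, was at 7.27 to 7.99 in GG and 6.31 to 6.82 in BG kidneys, and Per3, its homologue, at 7.13 to 7.40 and 6.49 to 6.77. The activators went the other way. Arntl was at 5.75, 6.62 and 6.68 in the GG kidneys and 7.32 to 8.17 in the BG kidneys, and Clock at 7.61 to 8.01 and 8.25 to 8.37. Neither pair of groups overlapped. Of the 10 measured genes of the evening arm, those that clock activators drive, 7 (Dbp, Tef, Hlf, Per2, Per3, Nr1d1 and Nr1d2) had every GG kidney above every BG kidney, where 1.91% of all 15780 genes did. Of the 5 genes of the morning arm, Arntl and Clock had every GG kidney below every BG kidney, where 3.72% of all genes did. Kidney 8 was at 7.94 for Arntl, within the BG range, but at 9.13 for Nr1d1, a repressor of Arntl, within the GG range. The 30-week kidneys, which all carry BG, had Dbp from 6.99 to 10.28, a range that reaches into that of the GG kidneys here. The mean level of the 10 evening-arm genes had an SD of 0.53 at 30 weeks and 0.41 in early remission.

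**Figure D3:**
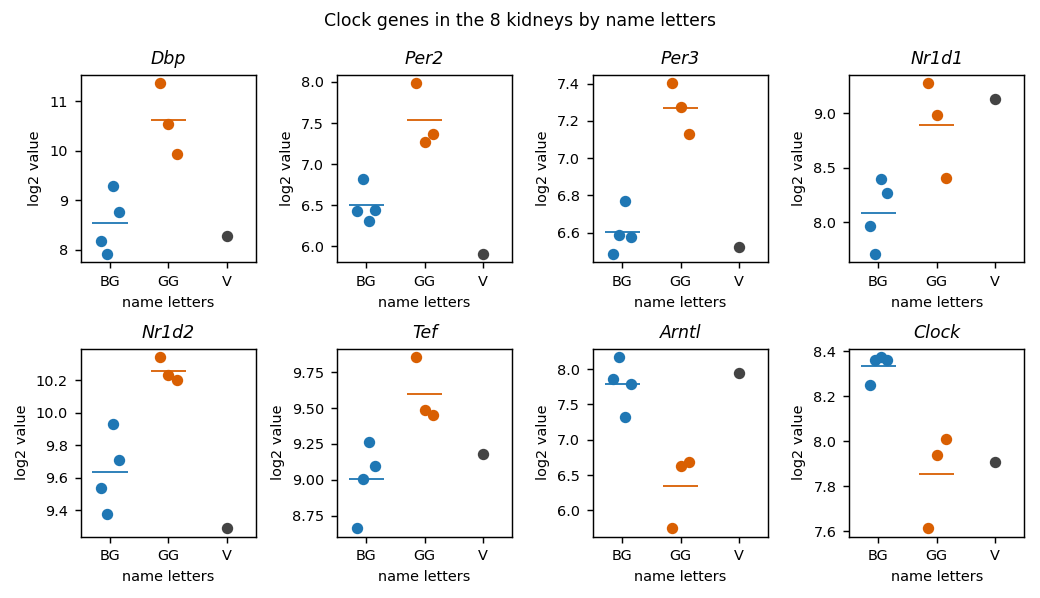
Log2 values of 8 clock genes in the early-remission kidneys by name letters, with 4 BG kidneys, 3 GG kidneys and the single V kidney; each point is a kidney and each line the mean of its letters. All GG points lie above all BG points for Dbp, Per2, Per3, Nr1d1, Nr1d2 and Tef, and below them for Arntl and Clock.

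The differences between the letters did not pass the test across all genes. In the limma fit of 3 GG against 4 BG kidneys no gene was called in either direction (0% of 15780, 868 at an unadjusted p under 0.05), and the smallest adjusted p of 0.437 was that of Per3, which was 0.66 ± 0.09 (SE) higher in GG kidneys. Dbp was 2.07 ± 0.38 higher (adjusted p = 0.760, limma) and Arntl 1.43 ± 0.25 lower, with mean levels of 7.79 in BG and 6.35 in GG kidneys (adjusted p = 0.643, limma). No alternative setting gave a call. The labels give no time of day, batch or litter for the letters, and these cannot be told apart here.

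E-boxes lie in the promoters of some of these genes. RefSeq windows from 250 bases before to 50 after the start site (mouse build GRCm38.p6) were found for 9 of the 10 evening-arm genes. The letters CACGTG, which read the same on both strands, were in 5 of their 11 windows (4 of the 9 genes) and in 7.15% of all 32851 windows. Per1 and Tef are shown as members with 1 match in the window printed (a second window of Tef, at another start site, also held 1), and Ciart, a repressor of the activators, as the member with most matches. Capitals mark the E-box.
Per1, chr11:69098699-69098998, plus strand: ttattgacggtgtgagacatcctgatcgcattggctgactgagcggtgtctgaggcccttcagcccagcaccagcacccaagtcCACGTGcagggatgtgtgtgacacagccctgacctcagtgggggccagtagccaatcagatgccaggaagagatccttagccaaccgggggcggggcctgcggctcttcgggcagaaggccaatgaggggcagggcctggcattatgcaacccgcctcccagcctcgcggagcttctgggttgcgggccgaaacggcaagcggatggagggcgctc
Tef, chr15:81811164-81811463, plus strand: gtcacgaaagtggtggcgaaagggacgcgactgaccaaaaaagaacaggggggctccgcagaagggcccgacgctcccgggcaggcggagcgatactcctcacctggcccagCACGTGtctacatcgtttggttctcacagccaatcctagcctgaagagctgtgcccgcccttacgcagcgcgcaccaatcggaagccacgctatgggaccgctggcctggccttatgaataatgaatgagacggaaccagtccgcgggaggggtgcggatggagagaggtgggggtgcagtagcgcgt
Ciart, chr3:95882179-95882478, minus strand: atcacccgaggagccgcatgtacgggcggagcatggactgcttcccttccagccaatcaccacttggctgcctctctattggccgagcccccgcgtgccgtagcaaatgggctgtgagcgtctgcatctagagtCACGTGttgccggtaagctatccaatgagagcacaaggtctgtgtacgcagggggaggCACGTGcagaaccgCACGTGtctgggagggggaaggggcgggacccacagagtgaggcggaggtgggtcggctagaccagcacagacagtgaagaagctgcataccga
Tef was one of the genes with no overlap between the letters (9.45 to 9.85 in GG and 8.66 to 9.26 in BG kidneys), and Per1 was highest in kidney 2 (9.04), with 7.90 and 8.28 in the other GG kidneys and 7.44 to 8.09 in the BG kidneys. Ciart, with 3 matches, differed by -0.02 ± 0.16 (SE) between GG and BG kidneys. Bhlhe41, a repressor with 1 match, differed by 0.02 ± 0.06. The other 5 members had no CACGTG in their windows, which says only that these letters are not there. Of the 7 genes with no overlap between the letters, 1 had no window to search, and only Tef of the rest had a match. In the morning arm 1 of 5 genes had one. The NR5A1 site (2 cortex and 4 medulla genes) and the sterol response element (8 sterol synthesis genes) had no match. Neither had the PPAR direct repeat (11 PPAR alpha targets and 13 beta-oxidation genes). These motifs were in 1.56%, 0.234% and 0.0396% of all windows, so their absence says little.

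Immediate early genes, which cells switch on quickly after a stimulus, ranged widely. Fos was at 9.94 in kidney 2, 9.48 in kidney 7 and 8.77 in kidney 1, at 7.62 to 8.02 in kidneys 3 to 6 and at 6.33 in kidney 8. Egr1, a zinc finger factor of the same response, kept that order at both ends, with 11.02 in kidney 2, 10.49 in kidney 7 and 7.90 in kidney 8. All 66 pairs of the 12 scored genes were positively correlated (median r of 0.80), 11 of them had their highest value in kidney 2 and 8 their lowest in kidney 8. The heat shock genes were also lowest in kidney 8 for 4 of 5, with Hspa1b at 9.44 against 10.16 to 10.96. Chaperones of the endoplasmic reticulum were highest in kidney 1 for 6 of 12, with Hspa5 at 12.08 against 11.02 to 11.91. Members of the hypoxia list did not move as a unit, with a median pairwise r of -0.04.

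Immune genes put kidney 1 at one end and kidneys 6 and 7 at the other. The 19 immunoglobulin genes with a mean of at least 6 had a median SD of 0.80, and 17 of them were in the top 5% of all genes. Ighg2b, a heavy chain of class-switched antibody, was at 10.10 in kidney 1, 9.35 in kidney 8 and 9.04 in kidney 2, at 8.34 to 8.59 in kidneys 3, 4 and 5, and at 6.87 and 6.36 in kidneys 6 and 7. Ighm, the heavy chain of IgM, ran from 8.23 in kidney 7 to 11.27 in kidney 1, and Jchain, which joins IgM and IgA into polymers, from 10.82 in kidney 6 to 12.91 in kidney 1. Of the 19, 11 had their highest value in kidney 1 and 16 their lowest in kidneys 6 or 7. Probes for the variable segments can also bind related segments, so the values of Ighv1-14, Igkv6-15 and the like are uncertain as to which segment they measured.

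Macrophage and antigen-presentation genes were also highest in kidney 1 and lowest in kidney 7. Cd68, a macrophage lysosomal protein, ran from 5.94 in kidney 7 to 7.78 in kidney 1, and C1qc, a chain of the first complement component, from 7.10 to 9.09 in the same kidneys. All 136 pairs of the 17 macrophage and dendritic cell genes and all 21 pairs of the 7 MHC class II genes were positively correlated (median r of 0.83 and 0.90). H2-Eb1, a class II chain, was at 11.19, 11.08 and 10.97 in kidneys 1, 2 and 8 and at 10.36, 10.17 and 9.99 in kidneys 5, 6 and 7. Ccl8, a monocyte chemokine, was at 8.65 in kidney 1 and 8.54 in kidney 8 against 6.87 to 8.20. The interferon-inducible Ifit1 was at 7.48 in kidney 1, 6.92 in kidney 8 and 6.17 to 6.70 in the rest, kidney 2 included, which was high for the class II genes. T cell genes spread far less, with a score SD of 0.13 against 0.48 for plasma cell genes, and only 5 of their 16 measured genes reached a mean of 6. Limma called no gene for a slope on the T cell score (0% of 15764, 1990 at an unadjusted p under 0.05), and the smallest adjusted p was 0.0718.

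Tubular injury genes were high in kidneys 1 and 2. Lcn2, an iron-siderophore binding protein released by injured tubules, was at 8.35 in kidney 2, 7.63 in kidney 1 and 7.25 in kidney 3, and between 5.69 and 6.52 in the others. Fga, a fibrinogen chain, was at 10.81 and 9.61 in kidneys 2 and 1 against 8.67 to 9.0. Matrix genes had another order, and Col3a1, a fibrillar collagen, was at 11.10 in kidney 4, 8.18 in kidney 2 and 9.13 to 10.23 in between. Proximal tubule genes were lowest in kidney 2 for 6 of 11. Slc34a1, the phosphate transporter, was at 12.58 there against 13.18 to 13.50, and Slc5a2, the glucose transporter SGLT2, at 10.24 against 10.88 to 11.48. Endothelial genes hardly moved (score SD 0.04), and podocyte genes moved little (0.14).

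The list scores were then compared with each other. Over 741 pairs of 39 lists, an exact permutation test of Pearson's r over all pairings of the 8 kidneys, two-sided and with Benjamini-Hochberg adjustment, called 22 pairs, 16 positive and 6 negative, and 124 pairs had an unadjusted p under 0.05. With Spearman's rho 8 pairs were called, and 7 pairs by both measures. Several immune lists varied together, though not every pair of them was called. In kidney 2 the score was -0.11 for interferon-inducible genes and 0.42 for MHC class II genes. Cell cycle genes, grouped with the immune lists, had another order, highest in kidney 4 and lowest in kidney 3. Scores of macrophage and dendritic cell genes and of MHC class II genes correlated with r = 0.975 (rho = 0.976, exact permutation p = 7.4e-05 and 0.000397, adjusted p = 0.0184 and 0.0368), and r was 0.947 without kidneys 1 and 7, the farthest from the median. MHC class I and chemokine genes correlated with r = 0.965 (rho = 0.976, exact permutation adjusted p = 0.0184 and 0.0368, r = 0.951 without kidneys 6 and 7). T cell and plasma cell genes correlated with r = 0.932 (rho = 0.976, exact permutation adjusted p = 0.0184 and 0.0368, r = 0.921 without kidneys 1 and 8).

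**Figure D4:**
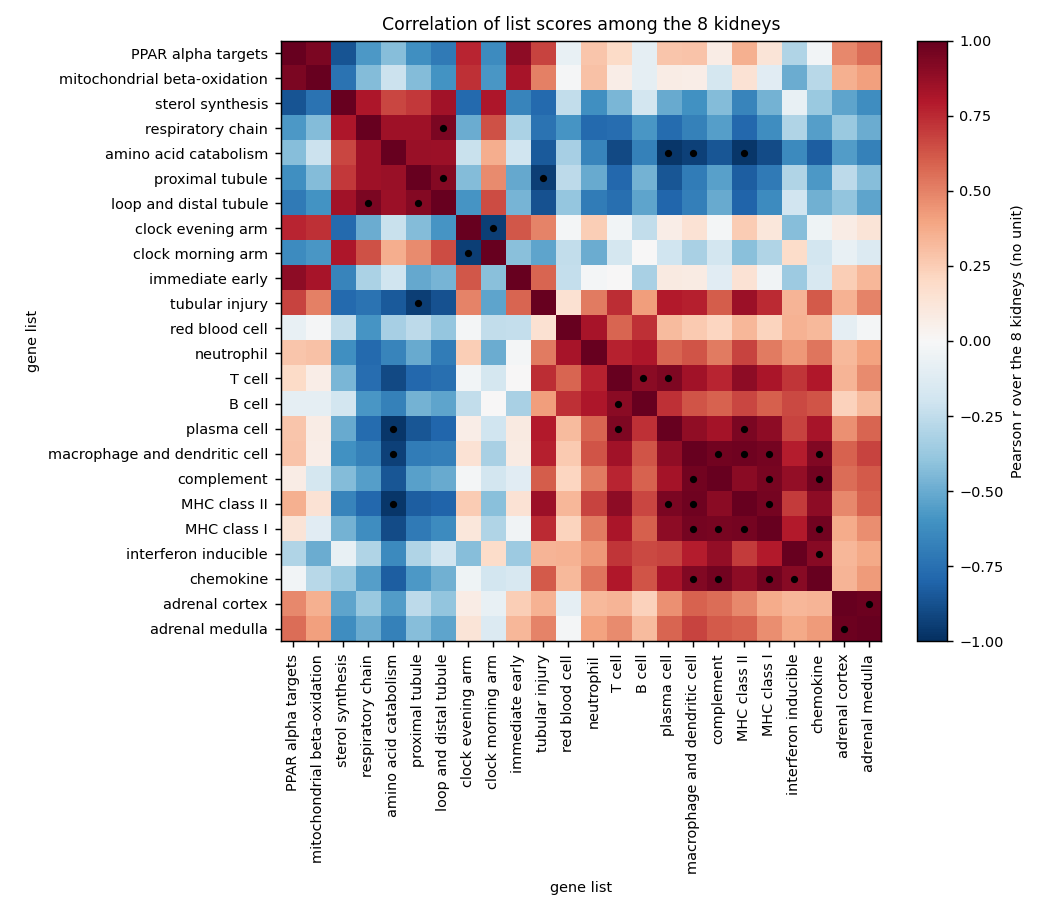
Pearson's r between the scores of 24 gene lists over the 8 early-remission kidneys, with both axes listing the same gene lists and colour giving r from -1 to 1; black dots mark pairs with an adjusted exact permutation p under 0.05 over all 741 pairs. The immune lists shown, which leave out cell cycle genes, are red against each other to differing degrees. Amino acid catabolism is blue against plasma cell (-0.974), macrophage and dendritic cell (-0.934) and MHC class II genes (-0.972).

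Amino acid catabolism ran against several immune lists, while no other metabolic list was called with an immune list. The score of 24 amino acid catabolism genes was opposite to MHC class II with r = -0.972 (rho = -1.0, exact permutation adjusted p = 0.0184 and 0.0368, r = -0.945 without kidneys 1 and 7), to plasma cell genes with r = -0.974 (rho = -0.929, exact permutation adjusted p = 0.0230 and 0.0788, r = -0.960 without the same kidneys) and to macrophage and dendritic cell genes with r = -0.934 (rho = -0.976, exact permutation adjusted p = 0.0230 and 0.0368, r = -0.872 without them). The shift was small, since the score of the list ran only from -0.08 in kidney 1 to 0.09 in kidney 7, and its genes had a median pairwise r of 0.21. Tubular injury and proximal tubule genes were opposite with r = -0.939 (rho = -0.786, exact permutation adjusted p = 0.0368 and 0.255), and r was -0.771 without kidneys 1 and 2. Both arms of the clock were opposite with r = -0.941 (rho = -0.929, exact permutation adjusted p = 0.0400 and 0.0788, r = -0.825 without kidneys 2 and 3). The adrenal lists fell into separate clusters of kidneys, so their correlation is not given. The matrix of correlations shows that PPAR alpha targets were not called with any immune list.

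Leaving out single kidneys changed these calls. With 7 kidneys the count of called pairs was 0 without kidney 1, 3, 5 or 7, 3 without kidney 6, 9 without kidney 8, 19 without kidney 2 and 21 without kidney 4, and 0.000198 is the smallest p that the exact test can give with 7 kidneys, so that a lost call says little about a pair. The size of r over the 22 pairs was at least 0.81 without any single kidney and at least 0.61 after quantile normalization, but as low as 0.26 with all list members scored. None of the 22 pairs changed sign in any setting. Removing the mean of each letter from the scores gave a count of 57, with all 22 among them. Kidney 8, the only kidney with V, then has no deviation left in any list. The permutation test still treats the 8 values as exchangeable, so its p-values do not hold there. The count of 57 therefore says nothing about the 22 pairs.

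The spread of each gene was finally compared with that in other NZB/W groups. The median SD of the same 10694 genes was 0.138 here, 0.140 at 30 weeks, 0.181 in the TACI-Ig kidneys and 0.143 in those of late remission on triple therapy. The last group was left out of the tests of spread. Its means for the 30 genes of largest SD lay close to the means over the 30-week and TACI-Ig kidneys pooled. They did not equal the means of either group. Cyp11b1 had a mean of 7.10 in late remission on triple therapy, 8.42 at 30 weeks and 5.24 in TACI-Ig kidneys. The corresponding means of Ighg2b were 7.94, 8.21 and 7.57. How this closeness arose was not tested. The values of late remission on triple therapy are therefore given as a description only. A limma fit of absolute deviations from the group mean called no gene between early remission and 30 weeks (0% of 15780 in either direction, 745 at an unadjusted p under 0.05, smallest adjusted p of 0.242), which does not show that the spreads were the same. Leaving out either of the kidneys that share a mouse code also gave 0 calls. Adrenal genes were uneven at 30 weeks as well, where Cyp11b1 ran from 4.98 to 9.77. Against late remission after TACI-Ig, 12 genes spread more in early remission (0.0760%) and 101 spread less (0.640%). With an intensity trend and a robust prior the counts were 0 and 112, so that no gene of wider spread was called.

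Of the 12 genes of wider spread, 5 were among the 8 cortex genes and 2 among the 5 medulla genes, and the other 5 were Scg2, Akr1cl, Adh7, Resp18 and Pcdh17. These counts are a description, since the adrenal genes were taken up for their SD in the same kidneys. Cyp11b1 ran from 5.01 to 5.42 in the 5 TACI-Ig kidneys, with a mean of 5.24, and only 2 of the 8 cortex genes reached a mean of 6 there, so that low level and narrow spread went together. The genes of narrower spread held B cell and myeloid genes. Ms4a1, the B cell antigen CD20, deviated by 0.19 in early remission, where it ran from 5.35 to 6.19, and by 0.94 in TACI-Ig kidneys, where it ran from 4.72 to 6.73 (difference -0.74 ± 0.11, SE, adjusted p = 0.0137, limma). Cd79b, part of the B cell receptor (-0.75), Fcgr4, an activating Fc receptor (-0.74), and Aif1, a macrophage protein (-0.74), were called likewise. Of the list genes, 3 of 9 B cell, 2 of 16 T cell and 2 of 18 macrophage and dendritic cell genes were called narrower. The TACI-Ig kidneys had 3 with high and 2 with low levels of Ms4a1 and Fcgr4, as the plot of 3 groups shows, and the calls for Ms4a1, Cd79b, Fcgr4 and Aif1 were lost without TACI-Ig kidney 2 or 4. Among all genes, the 113 calls ranged from 21 without early-remission kidney 4 to 844 without TACI-Ig kidney 3. They numbered 68, 24, 29, 58 and 218 without early-remission kidney 3, 5, 6, 7 or 8 and 184 and 231 without TACI-Ig kidney 1 or 2. With deviations taken from the group median only 4 genes were called, all of wider spread, and with the replicate number as a block 1.

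**Figure D5:**
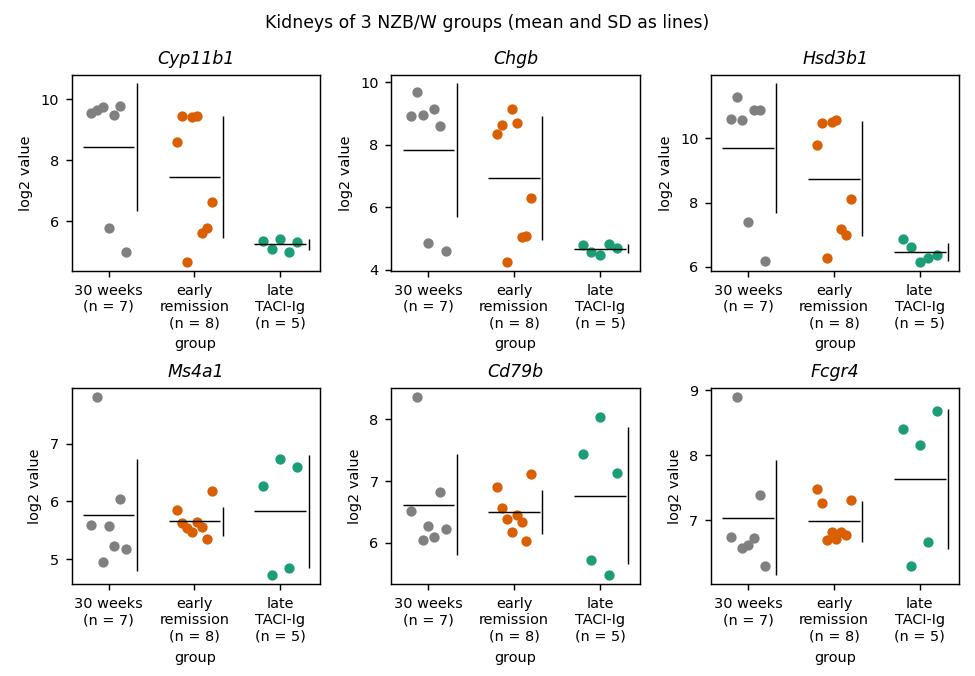
Log2 values of 3 adrenal genes (top) and 3 leukocyte genes (bottom) in the kidneys of 3 NZB/W groups, 7 at 30 weeks, 8 in early remission and 5 after TACI-Ig (late remission); each point is a kidney, the horizontal line is the group mean and the vertical line the mean with 1 SD on either side. Adrenal genes are split in early remission and at 30 weeks and low in all 5 TACI-Ig kidneys, while the leukocyte genes are closer together in early remission than in the TACI-Ig group.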

How the data were processed

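Whole-kidney RNA was hybridised to Affymetrix arrays, 1 array per sample. The deposited values are log2 expression, made with RMA per the submitters' processing notes, and per the study's methods the authors normalized all arrays together and corrected them for batches, which are not named in the sources used here. That correction can remove differences between batches and leave those between mice. Arrays have no read depth, so the number of kidneys limits the precision. Kidneys were grouped by title. Of 16539 probe sets, 15780 name 1 gene (15752 matched to RefSeq by Entrez ID), 64 are array controls and 695 were not named.

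Computed here were the mean and SD over 8 kidneys, list scores (39 lists, 422 of 483 genes measured, 343 with a mean of at least 6), exact permutation tests of score correlations, and limma 3.58.1 fits in R 4.3.3 with Benjamini-Hochberg adjustment over all genes tested and a threshold of 0.05 (Python 3.11.15, numpy 2.4.6, scipy 1.17.1, pandas 2.3.3, matplotlib 3.10.9). Spread was tested on absolute deviations from group means, scaled for group size. The fits were tested on simulated data. Named are the 30 genes of largest SD, the 4 most variable genes of each list, the 10 largest and smallest coefficients among calls and the 10 extreme loadings of 2 principal components; others were named after their values were seen. The group, the lists and the tests were chosen with earlier results of these data known. Nothing states that the samples are separate mice, and 2 samples share a mouse code, so p-values measure only the spread between these samples. Alternatives were renormalization, median centring, low-value filters, robust priors, a replicate block, name letters as a covariate and leaving out kidneys. Unmeasured list genes were not analysed here.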

Additional observations from a re-analysis of the deposited data

Results flagged for a closer look

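Within the 8 kidneys, single kidneys stood apart by Dixon's ratio (the gap to the nearest kidney over the whole range) for 7 of 39 list scores, 6 of the 30 genes of largest SD and 23 of 135 other list genes. Chance gives about 1 in 20 for a single measure, but the genes were chosen for their large SD and the scores are correlated, so that rate does not apply to these counts. Kidney 2 stood apart in the scores of PPAR alpha targets (1.23), beta-oxidation (0.45), sterol synthesis (-0.71), NRF2 targets (0.22) and hypoxia (0.25). Kidney 8 stood apart in the scores of red blood cell (0.54) and adipose genes (-0.87).

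Among genes, kidney 2 was high for Fabp1 (9.35), Angptl4 (10.48), Eci1 (11.81), Acaa2 (11.96), Decr1 (11.59), Cpt2 (11.76), Pck1 (13.35), Pcx (11.49), Nqo1 (9.43), Adm (8.01), Pdk1 (8.87), Fga (10.81) and Klf1 (7.89). These span fatty acid oxidation, glucose synthesis, oxidant defence and acute-phase response. Kidney 2 was low for Gatm (9.88), Dleu7 (5.97), Msmo1 (7.60), Nsdhl (9.19), Slc34a1 (12.58) and Calb1 (10.47).

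Kidney 8 stood apart for Slc7a13 (10.68), Alas2 (9.96), Cyp7b1 (8.61), Gsta2 (12.31), Ccn1 (6.68), Car9 (7.73), Ucp1 (7.38) and Slc22a6 (11.45). Kidney 3 stood apart for Itga2b (7.57), a platelet integrin, and kidney 4 for Lum (8.94), a matrix proteoglycan. What sets these kidneys apart was not tested.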

How the results depend on the processing

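Counts of calls depended on the kidneys included more than on the scaling, and the cause of each change was not tested. Between early remission and 30 weeks the spread test called 1 gene with BG kidneys alone, 2 without kidneys 2 and 8 (chosen after seeing the data), 0 with the replicate number as a block, and 0 to 1 when single kidneys were left out. Against TACI-Ig kidneys the 113 calls became 4 with deviations from the median, 232 after quantile normalization, 112 with a robust prior (0 wider and 112 narrower, against 12 and 101), 1 with the replicate block, 22 with BG kidneys alone, 394 without kidneys 2 and 8, and 21 to 844 without single kidneys. Slopes on the PPAR alpha score numbered 172 with name letters as a covariate, 0 without kidneys 2 and 8, and 0 to 740 without single kidneys. Slopes on the red blood cell score numbered 6 with the letters, 116 with all list members scored, 0 without kidneys 2 and 8, and 0 to 226. Slopes on the T cell score numbered 2 after quantile normalization, 68 with the letters, 9 with all members, 1 without kidneys 2 and 8, and 0 to 44 (44 without kidney 4, 3 without kidney 1, 1 without kidney 8). Slopes on the adrenal score numbered 5 to 12, and differences between the letters 0 to 0, without single kidneys. Of the 30 genes of largest SD, 18 stayed among the top 30 without kidneys 2 and 8, 18 when ranked by MAD, and 23 to 29 without single kidneys, and of the 10 lists of largest score SD 7 to 10 did. Called pairs of lists numbered 11 after quantile normalization, 57 with letter means removed, 0 without kidneys 2 and 8, and 0 to 21. The permutation p-values behind the count of 57 do not hold, since kidney 8 is the only kidney with its letter.

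Replicate numbers did not pair the samples, since deviations of same-numbered kidneys correlated with r = -0.0926 to 0.344 at 30 weeks, where 2 of 7 early-remission kidneys correlated best with their own number, and -0.132 to 0.116 for TACI-Ig, where 0 of 5 did. The blocked values above therefore say nothing about a paired effect.

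Slopes of some named genes changed sign. On the PPAR alpha score without kidneys 2 and 8 the slope was 0.52 for Fabp7, -1.19 for Reep6, -0.56 for Cebpd and -0.54 for Arg2. Without single kidneys it ran from -2.02 to 0.14 for Dleu7, -1.67 to 0.021 for Clec2h, -1.41 to 0.25 for Fabp7, -1.47 to 0.42 for Slc9a8, -0.29 to 1.27 for Reep6 and -0.16 to 1.39 for Fga, with the changed sign without kidney 2. On the red blood cell score Cyp2j13 had -0.43 with the letters, -0.22 without kidneys 2 and 8, and -0.38 (without kidney 8) to 3.66 without single kidneys. Without kidneys 2 and 8 the slope was 1.05 for Acot7, 1.35 for Ugt2b34, 1.44 for Ddit4, 1.01 for Pxylp1, 0.23 for Mal2, 0.10 for Gja1, -1.26 for Chst7, -0.69 for Ugt2b37, -1.41 for S100a9 and -0.024 for Aldh1a7. Of the other settings of named genes, 792 stayed on their side of the threshold and 344 did not, and 23 changed sign in all.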
